A study of Mus musculus with 11 samples.

Results

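The genes described here are the Bcl2 family, the caspases and the death receptors with their adaptors, the core machinery that starts, restrains and executes apoptosis. The set holds 38 genes out of 22911 genes that could be named on the arrays. Its members were listed by name, but earlier results of these data were known when they were chosen. All 62 probes whose RefSeq accession belongs to a member were collected. RNA came from the liver of 8-week-old male C57Bl6/J mice, 5 days after an intraperitoneal injection of adeno-associated virus 8 (AAV8), a vector that enters hepatocytes efficiently. Every mouse received 6e+11 viral genomes in all. The 3 GFP arrays carry RNA from mice given only the vector for green fluorescent protein. The mice of the 3 NICD1 arrays received 3e+11 viral genomes encoding the intracellular domain of Notch1 and 3e+11 encoding GFP, and those of the 3 NICD2 arrays had the domain of Notch2 in place of that of Notch1. Those of the 2 NICD1&2 arrays received 3e+11 of each Notch vector and no GFP vector, so the GFP dose differs between all these groups except NICD1 and NICD2. All transgenes were driven by the cytomegalovirus promoter, which is not restricted to hepatocytes, and every group, the controls included, had been given AAV8. The labels number the arrays within a group without saying that each was a separate mouse. The study states that its experiments used 3 or more mice per group. It gives n = 3 for the GFP, NICD1 and NICD2 arrays and n = 2 for NICD1&2, without linking arrays to mice. The p-values thus measure the spread between these arrays, which may be technical in part.

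Notch receptors are cleaved after they bind a ligand, and the released intracellular domain (NICD) enters the nucleus, joins the DNA-binding protein RBPJ and turns on target genes. Apoptosis is controlled at the mitochondrial membrane, where pro-survival proteins of the Bcl2 family hold back the pore-forming effectors Bax and Bak1, and BH3-only proteins release that brake. Cytochrome c then leaves the mitochondria and assembles with Apaf1 to activate the initiator Casp9, while death receptors such as Fas act through Fadd and Casp8. Hepatocytes are known for their high sensitivity to Fas. The question asked of these genes was whether forced Notch1 or Notch2 signalling, alone or together, moved their mRNA levels in the liver.

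Since NICD acts through RBPJ, the promoters of the members were searched for the RBPJ motif GTGGGAA on both strands. RefSeq promoter windows of 300 bases (250 before and 50 after the annotated gene start, build GRCm38.p6) were at hand for 34 of the 38 members, with 47 windows in all, and those of Bik, Bnip3l, Pmaip1 and Tradd were not analysed here. The motif was found in 3 of these 47 windows, 6.38%, and in 6.38% of all 32851 windows. The shorter TGGGAA, which the longer motif contains, was found in 14 of the 47 windows (29.8%) and in 25.6% of all windows. The windows with the full motif are shown in the direction of the gene, in lower case with the motif in capitals (TTCCCAC is the motif on the opposite strand), because RBPJ is the protein through which NICD reaches DNA. The first is chr2:118544538-118544837 on the minus strand, with the motif starting at position -147 from the gene start, the second is chr9:88731801-88732100 on the minus strand, with the motif at position -173, and the third is chr19:6941611-6941910 on the plus strand, with the motif at position -118.
Bmf: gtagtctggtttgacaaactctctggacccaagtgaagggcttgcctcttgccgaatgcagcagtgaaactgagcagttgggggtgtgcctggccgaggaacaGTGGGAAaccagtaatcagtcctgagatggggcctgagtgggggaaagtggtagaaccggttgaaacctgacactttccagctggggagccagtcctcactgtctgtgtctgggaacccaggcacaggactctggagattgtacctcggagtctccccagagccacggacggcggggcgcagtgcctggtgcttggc
Bcl2a1d: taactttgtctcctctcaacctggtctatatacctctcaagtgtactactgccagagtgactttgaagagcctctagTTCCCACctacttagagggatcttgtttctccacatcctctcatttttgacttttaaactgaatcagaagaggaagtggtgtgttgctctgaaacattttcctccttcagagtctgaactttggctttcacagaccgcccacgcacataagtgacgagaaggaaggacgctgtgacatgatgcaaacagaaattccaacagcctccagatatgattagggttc
Bad: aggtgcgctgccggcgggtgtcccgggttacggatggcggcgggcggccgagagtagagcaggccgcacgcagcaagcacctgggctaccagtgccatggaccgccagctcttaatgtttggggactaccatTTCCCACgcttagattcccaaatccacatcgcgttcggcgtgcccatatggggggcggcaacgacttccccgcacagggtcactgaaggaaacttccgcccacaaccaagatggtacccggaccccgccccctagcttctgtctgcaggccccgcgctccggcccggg
A match is a description of these letters and not evidence of binding. None of these 3 genes met either threshold described below in any comparison, and their values are given with their groups.

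The arrays were 1-colour Agilent arrays with 62976 spots, of which 3671 were controls and 0 were saturated, and 57.0% to 62.0% of the probe spots on each array exceeded background clearly. Values are log2 of the processed signal less the 75th percentile of the array, so a difference of 1 is a doubling, and levels of different probes are not compared with each other. All 7 hepatocyte markers were detected, with a summed level on the linear scale between 3014 and 3789 on the GFP, NICD1 and NICD2 arrays and between 3955 and 4004 on the NICD1&2 arrays. The summed level of 5 bile duct markers ranged from 6.90 to 9.92 on the GFP arrays, 22.4 to 30.7 with NICD1, 22.5 to 30.5 with NICD2 and 32.4 to 40.1 with NICD1&2, but their median difference was 0.44, 0.48 and 0.74 on the log2 scale. The sum was carried largely by Spp1, encoding osteopontin, which differed by 1.71 with NICD1 (adjusted p = 0.0931), 1.81 with NICD2 (adjusted p = 0.0262) and 2.23 with NICD1&2 (adjusted p = 0.0108). Summed levels of 8 Kupffer cell and monocyte markers lay between 57.8 and 75.02. Each NICD group overlapped with GFP in this sum, while the NICD1&2 arrays (65.0 to 70.9) lay above the NICD1 arrays (57.8 to 64.7). Marker by marker, 8 of 8 had a lower mean with NICD1 (median difference -0.22), 7 of 8 with NICD2 (median -0.22) and 5 of 8 with NICD1&2 (median -0.06), where 1, Itgam, was altered at -0.98. Those of 10 lymphocyte markers lay between 14.0 and 21.1. The lymphocyte sum was above all GFP arrays on both NICD1&2 arrays (18.9 to 21.1 against 15.9 to 18.8), although 5 of 10 markers had a higher mean and 5 a lower mean (median 0.07). With NICD1 and with NICD2, 8 of 10 lymphocyte markers had a lower mean (medians -0.19 and -0.09), with Cd79a altered at -0.93 in NICD1. Of 5 markers of sinusoidal endothelium, Lyve1 was altered, at 0.86 with NICD2 and 0.93 with NICD1&2. Of 4 neutrophil markers tested, 1 was altered, at 0.92 with NICD1&2, where 2 had a higher and 2 a lower mean. With NICD2, all 4 had a higher mean (median 0.30). The stellate cell sum with NICD2 lay above all GFP arrays (8.92 to 9.64 against 6.68 to 8.73), with 4 of 5 markers higher and none altered. Of the bile duct markers, 2 were altered with NICD1&2. The part of these cell types in the results below was not tested, and in whole liver, fewer cells of a type and less RNA per cell cannot be told apart. The array has 1 probe each for Notch1 and Notch2, and neither was altered in the group that received its vector. Whether these probes lie within the vector sequence is not given in the sources used here, so they do not check the labels.

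No member was altered by the definition the study used (P under 0.15 without adjustment, with more than 1.8-fold change) in NICD1, NICD2 or NICD1&2 against GFP or in NICD1 against NICD2, and limma called 0 members at a Benjamini-Hochberg adjusted p under 0.05 in each. Of the 38 genes, 37 were tested and 36 of these were well above background on all 11 arrays. Hrk, a BH3-only gene best known from neurons, was well above background on 0 arrays with both of its probes and was not tested. Among all 16633 genes tested, each by its brightest probe, the altered share was 1.7% with NICD1, 1.74% with NICD2, 5.15% with NICD1&2 and 1.01% in NICD1 against NICD2. The called share was 0.012%, 0.0782%, 0.144% and 0.00601% in the same order, so that a count of 0 among 37 genes lies near the background. At an unadjusted p under 0.05, 5 members passed with NICD1 (5.88% of all genes), 5 with NICD2 (7.8%), 8 with NICD1&2 (16.8%) and 2 in NICD1 against NICD2 (4.25%). The arrays of both groups did not overlap for 8 members with NICD1, 8 with NICD2, 13 with NICD1&2 and 8 in NICD1 against NICD2, where the shares over all genes were 14.2%, 16.3%, 36.9% and 11%.

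The precision was enough to bound most members. The 95% interval of the difference lay within 1.8-fold in both directions for 35 of 37 members with NICD1 (78.8% of all genes), 32 with NICD2 (77.4%), 30 with NICD1&2 (70.2%) and 36 in NICD1 against NICD2 (79.9%). For 31 members it did so with NICD1 and with NICD2, which share the GFP arrays. The intervals that reached past 1.8-fold were those of Bbc3 and Casp12 with NICD1, of Bcl2a1d, Bik, Bmf, Bbc3 and Apaf1 with NICD2, of Bcl2l1, Bcl2a1d, Bax, Bad, Bbc3, Casp12 and Birc3 with NICD1&2, and of Bmf in NICD1 against NICD2. The median difference of the members was -0.09 with NICD1, -0.07 with NICD2 and 0.07 with NICD1&2 on the log2 scale, beside 0.0044, 0.02 and 0.12 for all genes. The NICD1&2 arrays were thus shifted by 0.12 against GFP over all genes, and this shift was 0.01 with quantile normalization. By sign alone, 11 of 37 members had a higher mean with NICD1 (51% of all genes), 16 with NICD2 (55.5%), 21 with NICD1&2 (66.6%) and 14 in NICD1 against NICD2 (45.7%). These counts moved with the scaling, to 11 with NICD2 under the percentile over probes detected on all arrays and 13 under quantile normalization, to 17 with NICD1&2 under quantile normalization and to 19 in NICD1 against NICD2 under normexp.

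**Figure D1:**
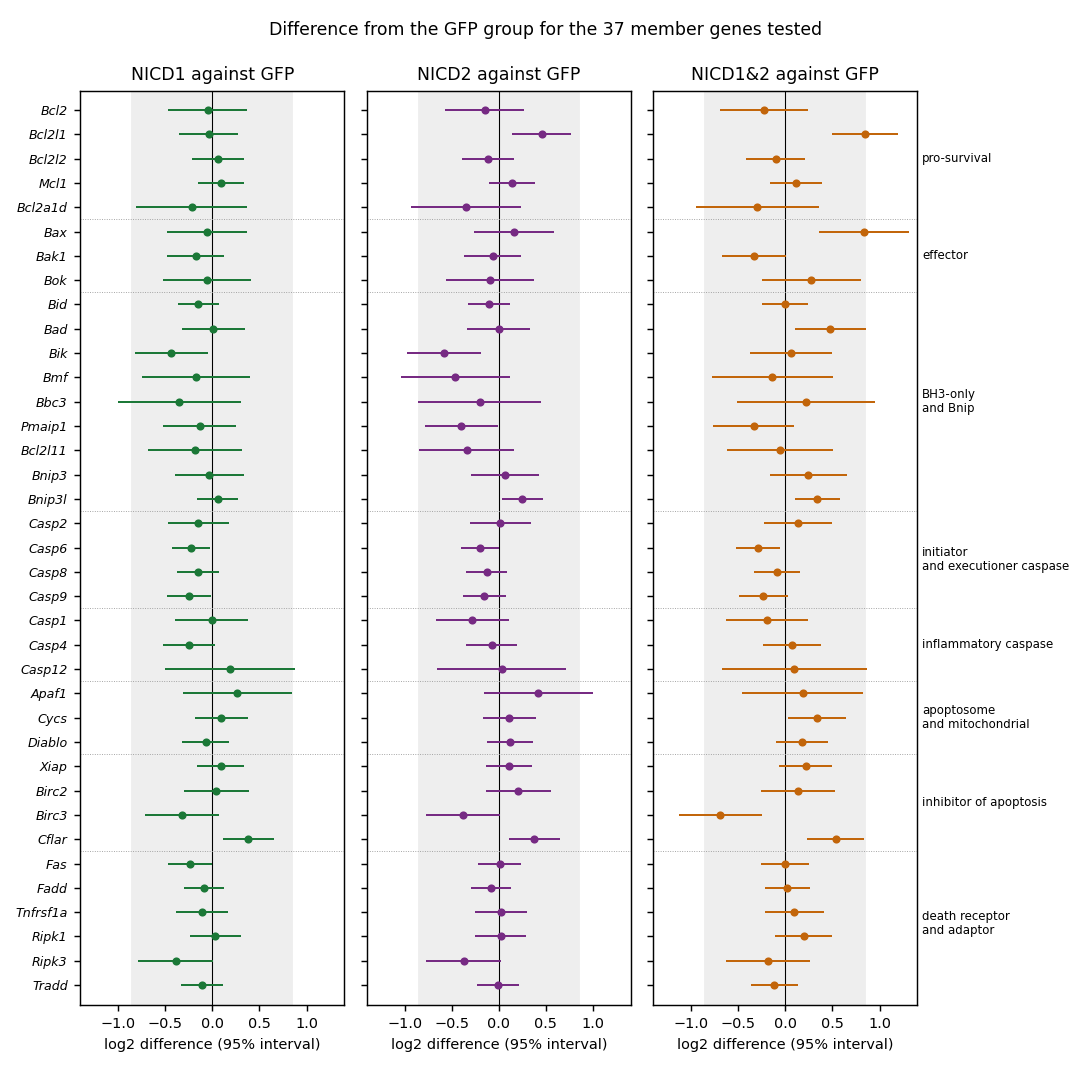
Log2 difference from the GFP group (points) with its 95% interval (lines) for the 37 member genes tested, by role, in the NICD1 (3 arrays), NICD2 (3 arrays) and NICD1&2 (2 arrays) groups. The grey band spans a change of 1.8-fold in either direction, and no point lies outside it, although Bcl2l1 and Bax with NICD1&2 lie at its edge.

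The size of the differences was also close to that of other genes. The median absolute difference of the members was 0.14 with NICD1, where that of all genes was 0.12. It was 0.14 against 0.13 with NICD2, 0.19 against 0.21 with NICD1&2 and 0.13 against 0.11 in NICD1 against NICD2.

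**Figure D2:**
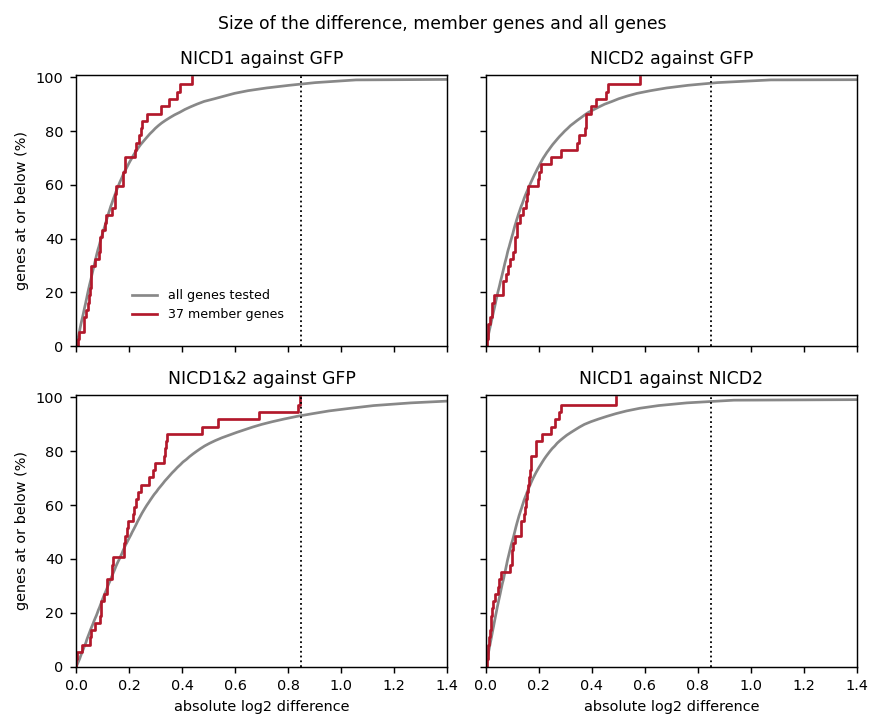
Cumulative share of genes (y axis, %) at or below an absolute log2 difference (x axis) for the 37 member genes (red steps) and all 16633 genes tested (grey line) in 4 comparisons. The dotted line marks 1.8-fold, and both curves rise close together, with a small share of all genes but no member past that line.

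The pro-survival genes stood closest to the thresholds through Bcl2l1, which encodes Bcl-xL, a main guard of hepatocyte mitochondria. Its brightest probe read 4.71, 5.02 and 4.95 on the GFP arrays, 4.78, 4.99 and 4.79 with NICD1, 5.46, 5.47 and 5.11 with NICD2, and 5.63 and 5.84 with NICD1&2. The NICD2 and NICD1&2 arrays all lay above the 3 GFP arrays, and the NICD1 arrays lay among them. With NICD1&2 the difference was 0.84 on the log2 scale (standard error 0.16, 1.79-fold, adjusted p = 0.107 in limma), or 0.73 less the median of all genes. It was 0.45 with NICD2 (standard error 0.14, adjusted p = 0.506), -0.04 with NICD1, and -0.49 in NICD1 against NICD2 (standard error 0.14, adjusted p = 0.99998). The other 4 probes of Bcl2l1 differed by 0.39 to 0.62 with NICD1&2 and by 0.29 to 0.40 with NICD2, and all 5 were lower in NICD1 against NICD2. These probes read the same RNA and are not replicates. Normexp background correction with quantile normalization gave an adjusted p of 0.0184 for NICD1&2 (0.72 on the log2 scale), and a filter of all 11 arrays gave 0.0475. The NICD1&2 difference was 0.76 among the arrays of slide 1 and 0.90 among those of slide 2. Each slide holds a single NICD1&2 array.

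None of the other pro-survival genes passed a threshold against GFP. Mcl1, a short-lived protein that hepatocytes need, read 4.49 to 4.66 on the GFP arrays and 4.58 to 4.88 on the NICD arrays, with differences of 0.09, 0.14 and 0.12 with NICD1, NICD2 and NICD1&2. Its groups overlapped, and its interval with NICD1&2 ran from -0.16 to 0.39. Bcl2, the founding member, differed by -0.05, -0.15 and -0.23, and its second, dimmer probe by 0.24, 0.25 and 0.36, so that both probes disagreed in direction. Bcl2l2, encoding Bcl-w, differed by 0.06, -0.12 and -0.10. Bcl2a1d, a pro-survival gene of blood cells whose near-identical mouse copies may share its probe, differed by -0.22, -0.35 and -0.30, with GFP arrays that spread from -0.82 to 0.34.

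Among the pore-forming effectors, Bax stood apart in the NICD1&2 group. It read 3.94, 3.94 and 4.13 on the GFP arrays, 3.82, 4.24 and 3.78 with NICD1, 4.18, 4.20 and 4.10 with NICD2, and 4.49 and 5.19 with NICD1&2. Both NICD1&2 arrays lay above all others. The difference was 0.84 (standard error 0.21, 1.79-fold, adjusted p = 0.179), or 0.72 less the median of all genes, and the second probe gave 0.59. This value depended on which NICD1&2 array was kept. Without NICD1&2 1 it was 1.19 with an adjusted p of 0.0474, and without NICD1&2 2 it was 0.49. Either leaves 1 NICD1&2 array, which the fit assumes to vary like the arrays of the other groups. Within slide 1 it was 0.55 and within slide 2, where the NICD1&2 group and the GFP group have 1 array each, it was 1.06. With NICD1 and NICD2 alone, Bax differed by -0.05 and 0.16. Bak1, the other main effector, differed by -0.18, -0.07 and -0.33 with NICD1, NICD2 and NICD1&2, the last with both arrays below all GFP arrays (adjusted p = 0.345). Bok, a relative with a less settled role, differed by -0.06, -0.09 and 0.27, the last being -0.18 without NICD1&2 2.

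The BH3-only and Bnip genes, which sense stress and damage, held 9 tested members, of which 7 had a lower mean with NICD1, 7 a lower mean with NICD2 and 5 a higher mean with NICD1&2, with no member altered. Bik, which encodes a BH3-only protein at the endoplasmic reticulum, read 0.42, 0.09 and 0.45 on the GFP arrays, -0.21, 0.04 and -0.18 with NICD1, -0.47, -0.37 and 0.06 with NICD2, and 0.22 and 0.54 with NICD1&2. The NICD1 and NICD2 arrays all lay below the 3 GFP arrays, and the NICD1&2 arrays lay among or above them. The differences were -0.58 with NICD2 (standard error 0.17, adjusted p = 0.480), -0.44 with NICD1 (adjusted p = 0.879) and 0.06 with NICD1&2. The NICD2 difference of Bik was -0.68 within slide 1 and -0.38 within slide 2.

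Bmf and Bad, whose promoters hold the RBPJ motif as does that of Bcl2a1d, passed no threshold. Bmf, which is tied to the cytoskeleton, differed by -0.18, -0.46 and -0.14 with NICD1, NICD2 and NICD1&2, and 1 NICD2 array, at 0.29, lay 1.02 below the GFP mean. Its second probe gave -0.12, -0.37 and 0.04. Bad, which couples survival signalling and glucose metabolism to apoptosis, differed by 0.01, -0.0030 and 0.47, and both NICD1&2 arrays (3.90 and 4.35) lay above the GFP arrays (3.53 to 3.78, adjusted p = 0.268). For Bad this was 0.70 without NICD1&2 1 and 0.25 without NICD1&2 2. Bnip3l, a mitophagy receptor, differed by 0.06, 0.25 and 0.34, with the NICD2 and NICD1&2 arrays all above the GFP arrays (adjusted p = 0.670 and 0.238). Its relative Bnip3 differed by -0.03, 0.07 and 0.24. The stress-induced genes Bbc3 (Puma) and Pmaip1 (Noxa), both targets of p53, differed by -0.35, -0.20 and 0.22 and by -0.14, -0.40 and -0.34. Bbc3 ranged from 1.097 to 2.16 on the GFP arrays, and its groups overlapped. Bid, which links death receptors to mitochondria in hepatocytes, differed by -0.15, -0.10 and -0.0014. Bcl2l11 (Bim) differed by -0.18, -0.34 and -0.05 on its brightest probe, and its 3 dimmer probes gave 0.13 to 0.52 with NICD1&2.

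**Figure D3:**
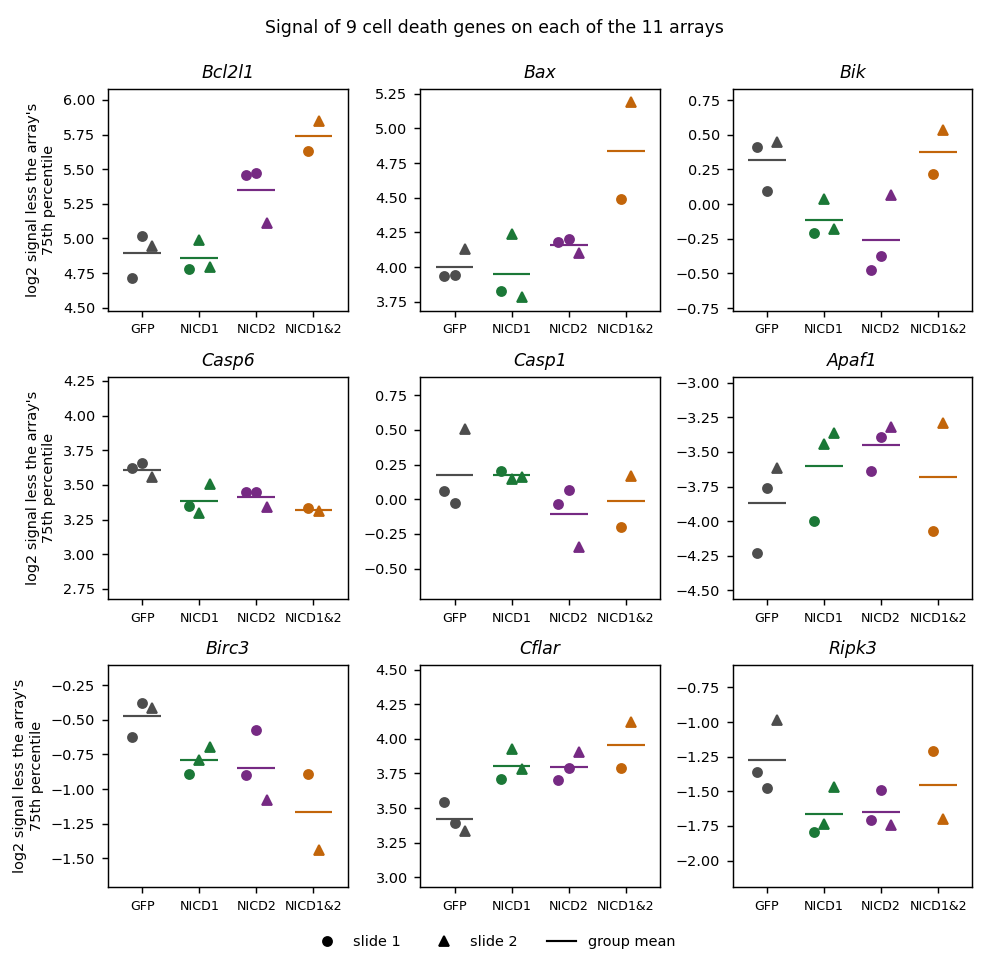
Log2 signal less the array's 75th percentile (y axis) of 9 cell death genes on each array, by group. Circles are arrays on slide 1, triangles arrays on slide 2 and lines the group means. Bcl2l1 and Bax are highest on the 2 NICD1&2 arrays, Casp6 is below and Cflar above the GFP arrays on all NICD arrays, and Casp1 overlaps between NICD2 and GFP.

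The initiator and executioner caspases differed little, with narrow intervals. Casp6, an executioner caspase, read 3.62, 3.66 and 3.55 on the GFP arrays, 3.35, 3.30 and 3.51 with NICD1, 3.45, 3.45 and 3.34 with NICD2, and 3.33 and 3.31 with NICD1&2. All NICD arrays lay below the GFP arrays. The difference was -0.29 with NICD1&2 (standard error 0.10, 1.22-fold lower, adjusted p = 0.266). NICD1 gave -0.22 (adjusted p = 0.879) and NICD2 gave -0.20 (adjusted p = 0.751). In NICD1&2 it was -0.31 within slide 1 and -0.24 within slide 2, each with a single NICD1&2 array. Casp9, the initiator of the mitochondrial route, differed by -0.25, -0.15 and -0.23 with NICD1, NICD2 and NICD1&2, and its second probe by -0.21, -0.33 and -0.13. Casp8, the initiator at death receptors, differed by -0.15, -0.13 and -0.09. Casp2, a caspase activated after DNA damage, differed by -0.15, 0.02 and 0.13. For all 4 of these caspases, the intervals excluded a 1.8-fold change in each of the 4 comparisons.

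The inflammatory caspases, which act in inflammasomes and in endoplasmic reticulum stress and are mostly made by myeloid cells, held no member that passed a threshold. Casp1, which activates interleukin 1 beta, read 0.06, -0.03 and 0.51 on the GFP arrays, 0.21, 0.15 and 0.16 with NICD1, -0.04, 0.07 and -0.34 with NICD2, and -0.20 and 0.17 with NICD1&2. The groups overlapped against GFP, and the difference with NICD2 was -0.28 (standard error 0.17, adjusted p = 0.846). It was 0.0020 within slide 1 and -0.85 within slide 2, where each group has 1 array, and it was -0.12 without GFP 3 and -0.16 without NICD2 3. Casp4, a sensor of bacterial lipopolysaccharide, differed by -0.25, -0.08 and 0.07 with NICD1, NICD2 and NICD1&2. Casp12 differed by 0.19, 0.03 and 0.09 on its brighter probe. Its dimmer probe was well above background on 0 of the 2 NICD1&2 arrays and on all 3 GFP arrays, at a GFP mean of -4.38. This lies below the lowest detectable level on those NICD1&2 arrays, so no fold change is given for it.

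None of the apoptosome and mitochondrial factors passed a threshold. Apaf1, the scaffold of the apoptosome, was well above background on 10 of 11 arrays and read -4.23, -3.76 and -3.61 with GFP, -3.997, -3.44 and -3.36 with NICD1, -3.64, -3.39 and -3.32 with NICD2, and -4.07 and -3.29 with NICD1&2. The groups overlapped in every comparison. For this probe the largest difference was 0.42 with NICD2 (standard error 0.26, adjusted p = 0.846), with 0.48 within slide 1 and 0.29 within slide 2. It was 0.24 without GFP 1 and 0.03 with normexp. Cycs, cytochrome c, differed by 0.10, 0.11 and 0.34 with NICD1, NICD2 and NICD1&2, and its second probe by 0.16 with NICD1&2. Without NICD1&2 2 the 0.34 of Cycs was 0.14. Diablo (Smac), which is released from mitochondria to neutralize inhibitors of apoptosis, differed by -0.07, 0.12 and 0.18.

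The inhibitors of apoptosis held genes on both sides. Birc3 (cIAP2), a ubiquitin ligase of the tumour necrosis factor pathway, read -0.63, -0.38 and -0.42 on the GFP arrays, -0.89, -0.79 and -0.70 with NICD1, -0.90, -0.57 and -1.08 with NICD2, and -0.89 and -1.44 with NICD1&2. All NICD1 and NICD1&2 arrays lay below the GFP arrays, and 1 NICD2 array lay among them. The difference was -0.69 with NICD1&2 (standard error 0.19, 1.61-fold lower, adjusted p = 0.208), or -0.81 less the median of all genes, and -0.39 within slide 1 and -1.02 within slide 2. It was -0.96 without NICD1&2 1 and -0.42 without NICD1&2 2. For NICD1, Birc3 differed by -0.32 (adjusted p = 0.903), and for NICD2 by -0.38 (adjusted p = 0.758).

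Cflar (c-FLIP), which blocks Casp8 at death receptors, is given array by array because it had the lowest p of the members with NICD1, and it was chosen after its values were seen. It read 3.54, 3.39 and 3.34 on the GFP arrays, 3.71, 3.92 and 3.78 with NICD1, 3.71, 3.79 and 3.90 with NICD2, and 3.79 and 4.12 with NICD1&2. Every NICD array lay above the GFP arrays. The differences were 0.38 with NICD1 (standard error 0.12, adjusted p = 0.794), 0.38 with NICD2 (standard error 0.12, adjusted p = 0.531) and 0.53 with NICD1&2 (standard error 0.13, adjusted p = 0.179). Within slide 1 they were 0.24, 0.28 and 0.32, and within slide 2 they were 0.52, 0.57 and 0.79. Its other probes did not all show this. The second probe for the same transcript record gave 0.47, 0.39 and 0.14, while a probe for another transcript gave -0.05, -0.0002 and -0.23, and the dimmest gave 0.14, 0.33 and 0.15. The 2 further inhibitors were close to the GFP level. Xiap, which binds caspases directly, differed by 0.09, 0.11 and 0.22 (0.08 without NICD1&2 2). Birc2 (cIAP1) differed by 0.04, 0.21 and 0.14, the last being 0.35 without NICD1&2 1 and -0.08 without NICD1&2 2.

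The death receptors and adaptors differed little. For all 6 of them the intervals excluded a 1.8-fold change in each of the 4 comparisons. With NICD1&2, 0 of 6 lay above or below GFP on all arrays (36.9% of all genes). With NICD1 and with NICD2, 1 of 6 lay below GFP on all arrays (14.2% and 16.3% of all genes in either direction). For 3 of 6, Fas, Tnfrsf1a and Tradd, all NICD1 arrays lay below all NICD2 arrays (11% of all genes in either direction). Ripk3, the kinase of necroptosis read -1.36, -1.48 and -0.99 on the GFP arrays, -1.79, -1.73 and -1.47 with NICD1, -1.71, -1.49 and -1.74 with NICD2, and -1.21 and -1.70 with NICD1&2. The NICD2 arrays lay below the GFP arrays, by a narrow margin, and the other groups overlapped with them. The difference was -0.39 with NICD1 (standard error 0.18, adjusted p = 0.898), with -0.37 within slide 1 and -0.61 within slide 2. It was -0.25 without GFP 3 and -0.21 with normexp. With NICD2 the difference was -0.37 (adjusted p = 0.768). Fas read 2.07, 2.36 and 2.39 on the GFP arrays and 2.03, 2.06 and 2.02 on the NICD1 arrays, a difference of -0.24 (adjusted p = 0.892), with 0.01 for NICD2 and -0.0006 for NICD1&2. Its NICD2 arrays read 2.32, 2.22 and 2.29, and NICD1 against NICD2 gave -0.24 (adjusted p = 0.99998). Fas and Bcl2l1 were the 2 members at an unadjusted p under 0.05 in that comparison. Tnfrsf1a, the main receptor for tumour necrosis factor, differed by -0.11, 0.02 and 0.09. The adaptors Fadd and Tradd differed by -0.09, -0.08 and 0.02 and by -0.11, -0.01 and -0.12, and the kinase Ripk1 by 0.03, 0.02 and 0.20. Without NICD1&2 1, the NICD1&2 differences of Tnfrsf1a, Fadd, Tradd and Ripk1 were 0.28, 0.11, 0.02 and 0.31. Without NICD1&2 2, these differences were -0.09, -0.07, -0.25 and 0.08. Normexp with quantile normalization gave -0.33 for Tradd with NICD1&2, with an adjusted p of 0.0394.

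Exact permutation of the arrays gave a two-sided p of 0.1 for Bcl2l1, Bax, Casp6 and Birc3 with NICD1&2 and for Bik with NICD2, which is the smallest this design allows. It gave 0.2 for Apaf1 with NICD2 and for Ripk3 with NICD1, and 0.4 for Casp1 with NICD2. Each gene and comparison was picked as the largest difference of its role in these same arrays. For the genes at 0.1, the value restates that the arrays of both groups did not overlap. Such arrays were found for 36.9% of all genes with NICD1&2 and 16.3% with NICD2.

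Directly between NICD1 and NICD2, which share no control arrays and received equal GFP doses, no member passed a threshold. None had all NICD1 arrays on 1 side of the GFP mean and all NICD2 arrays on the other. The same count was not made over all genes, so no background can be set beside it. All members differed by less than 0.50 between NICD1 and NICD2, the largest being Bcl2l1, and the median was -0.02, as it was for all genes. For the other 36 members the difference lay between -0.24 and 0.28.

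Non-additivity of both vectors was tested with the interaction, the NICD1&2 mean less the NICD1 and NICD2 means plus the GFP mean. Limma called 0 of 37 members and 0% of all genes, with 2 members and 6.94% of all genes at an unadjusted p under 0.05, namely Bax and Bik. Bik was the sole member altered at the study's cutoffs, at 1.07 (standard error 0.26, adjusted p = 0.558), beside 3.14% of all genes. The value followed from levels near the GFP mean with both vectors and below it with each alone. Bik kept a value between 0.87 and 1.24 in all alternatives run. Bax had an interaction of 0.73 (standard error 0.28, adjusted p = 0.697). Its interaction came to 1.08 without NICD1&2 1 and to 0.38 without NICD1&2 2. The members' median was 0.18 and that of all genes 0.08, with 29 of 37 members (61.3% of all genes) above 0, or 23 under quantile normalization. The 95% interval lay within 1.8-fold for 25 members (59% of all genes). Of the tested BH3-only and Bnip genes, 9 of 9 were above 0, with a median of 0.47, and 7 of 9 under quantile normalization, with a median of 0.38. Markers of several cell types were also above 0, namely 7 of 8 for Kupffer cells and monocytes (median 0.31), 9 of 10 for lymphocytes (median 0.39) and 6 of 7 for hepatocytes (median 0.32). Those of stellate cells (0 of 5, median -0.13) and sinusoidal endothelium (2 of 5, median -0.02) were mostly below 0. Their part in the value was not tested.

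**Figure D4:**
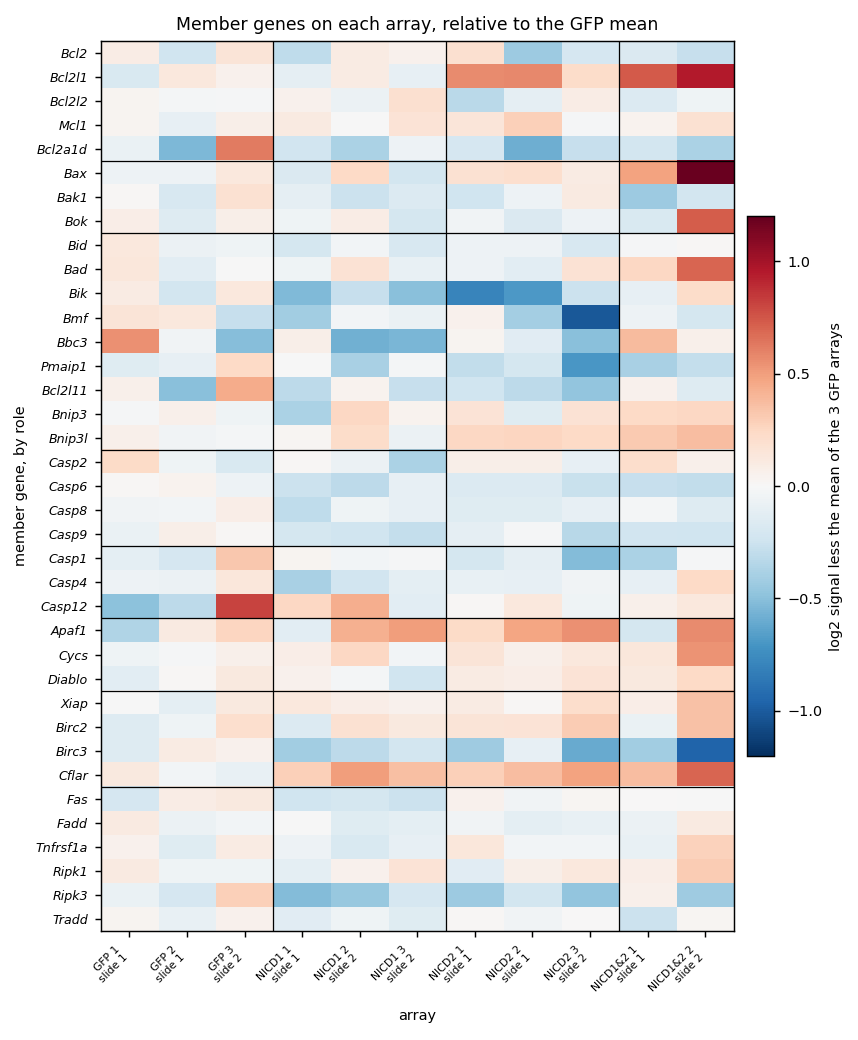
Log2 signal of each member gene (rows, by role) on each array (columns, by group and slide) less the mean of the 3 GFP arrays. Most cells are pale, and the 4 values beyond 1.8-fold are Bcl2l1, Bax and Birc3 on NICD1&2 2 and Bmf on NICD2 3.

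Over the whole set of 37 members and 11 arrays, a deviation from the GFP mean beyond 1.8-fold occurred 4 times, 3 of them on the array NICD1&2 2. They were Bax at 1.19, Birc3 at -0.96 and Bcl2l1 at 0.95 there, and Bmf at -1.02 on NICD2 3. Both arrays are on slide 2. For the 16 members with several tested probes, all probes pointed the same way in 9 genes with NICD1, 9 with NICD2, 7 with NICD1&2 and 7 in NICD1 against NICD2, and the median spread between the probes of a gene was 0.13 to 0.25, similar to the differences themselves.

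Beyond the set, a list of 59 other cell death genes was examined, of which 50 were tested. With NICD1, 1 was altered (1.7% of all genes), and with NICD2, 1 was altered (1.74%). With NICD1&2, 3 were altered upward and 2 downward (5.15% of all genes in either direction), and 1 was altered in NICD1 against NICD2 (1.01%). The counts with a single vector are near these shares, and the genes are named because they met the definition. Bcl2l15, a relative of the Bcl2 family, differed by 0.98 with NICD1, 0.82 with NICD2 (adjusted p = 0.484) and 1.05 with NICD1&2, from -4.46 to -3.74 on the GFP arrays to -3.35 to -2.72 with NICD1 (adjusted p = 0.701 with NICD1 and 0.185 with NICD1&2). With normexp the NICD1 and NICD1&2 differences of Bcl2l15 were 0.18 and 0.19. Birc5, survivin, which also serves in mitosis, rose by 0.97 with NICD1&2 (standard error 0.13, adjusted p = 0.0473), a call lost in 19 of 24 alternatives, and was higher by 0.86 with NICD2 (adjusted p = 0.0616). Over these alternatives the NICD1&2 difference of Birc5 stayed between 0.73 and 1.03. Its NICD2 difference stayed between 0.60 and 0.98 and remained uncalled in 21 of 24. Tnfrsf10b, the mouse receptor for TRAIL, was higher by 0.97 with NICD1&2 (adjusted p = 0.152) and lower by 1.30 in NICD1 against NICD2, where the NICD1 arrays read -2.05 to -1.72 and the NICD2 arrays -0.73 to -0.50. With normexp these differences of Tnfrsf10b were 0.73 (adjusted p = 0.0223) and -0.71 (adjusted p = 0.142). Gsdme, a pore-forming gasdermin cleaved by caspases and 1 of the 2 genes altered downward with NICD1&2, was at -1.001 with NICD1&2 (adjusted p = 0.195), with -2.39 and -2.07 against -1.50 to -0.93 on the GFP arrays, and its difference was -0.50 with normexp and -0.57 within slide 2. Aim2, a sensor of cytosolic DNA, is the other of the 2 genes altered downward, but it was well above background on 1 of 2 NICD1&2 arrays, at -3.45, where the GFP arrays read -3.57 to -3.19. The reading on the other array lies below its lowest detectable level of -4.24, so no fold change is given. The difference was -0.02 with the first NICD1&2 array alone, and 0.10 within slide 1.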

How the data were processed

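The data are 11 Agilent 1-colour arrays of mouse liver RNA. The authors scanned them with Feature Extraction 11.5.1.1, and the deposited intensity is the processed signal, with background removed. They also deposited a table of log2 values, which differed from those used here by at most 0.007 in the member probes. Spots of a probe were averaged, leaving out outlier spots, log2 was taken and the 75th percentile of the array subtracted. Of 56605 probes, 36049 were well above background on at least 2 of 11 arrays and were fitted in limma 3.58.1 (R 4.3.3) with a mean for each group over all arrays and Benjamini-Hochberg adjustment over all probes. Where several probes read a gene, the brightest one on average stood for it. The fit was tested on simulated data. Intervals are 95% intervals with moderated variance. The number of arrays limits the precision. The array design and the promoter table use different builds, so promoters are named by the table's build alone. Values of every array were given for members that were called or altered and, in each of the 8 roles without such a member, for the one with the largest difference. The members and lists were chosen with earlier results of these data known. Slide was examined as a batch. Alternatives were other normalizations and background correction, filters, fits, blocks and thresholds, the deposited table, and leaving out each array. Those for Cflar, for Bik in the interaction and for genes outside the set were chosen after seeing the data.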

Additional observations from a re-analysis of the deposited data

How the results depend on the processing

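Counts of called members were 0 in NICD1, NICD2, NICD1 against NICD2 and the interaction in all alternatives run. With NICD1&2, 2 were called with normexp (Bcl2l1 at 0.72 and Tradd), 1 with the filter of all 11 arrays (Bcl2l1 at 0.84) and 1 at an adjusted p under 0.15, and leaving out an array gave 0 to 1, with Bax called at 1.19 without NICD1&2 1, where the lone NICD1&2 array is assumed to vary like the other groups. Altered members numbered 5 with NICD2, 4 with NICD1&2, 1 in NICD1 against NICD2 and 6 in the interaction among the arrays of slide 2, where the fit has single arrays in 3 groups. Leaving out an array gave 0 to 3 altered members with NICD1&2 and 1 to 3 in the interaction. The median over members with NICD1&2 was -0.054 with quantile normalization, -0.0040 with the percentile over probes detected on all arrays and 0.0090 with normexp, and between -0.026 and 0.12 when leaving out an array. With NICD1 it was between -0.13 and -0.018 (without GFP 3) when leaving out an array, with NICD2 between -0.12 and -0.0099 (without GFP 3), and in NICD1 against NICD2 it was -0.098 within slide 1 and between -0.055 and -0.0053 when leaving out an array. In the interaction it was 0.11 with quantile normalization, 0.054 with normexp, 0.089 within slide 1 and 0.32 within slide 2. Casp1 with NICD2 was 0.0020 and Aim2 with NICD1&2 was 0.10 within slide 1, both in the opposite direction. The cause of these shifts was not tested. The replicate numbers are shared between groups, but same-numbered arrays did not deviate together (15 pairs, 6 with a correlation over 0.1, median 0.04). With the replicate block, 0 members were called and 1 was altered, Bik in the interaction at 1.14, and the median with NICD1&2 was 0.05. Slide 1 holds a single NICD1 and a single NICD1&2 array. Slide 2 holds 1 GFP, 1 NICD2 and 1 NICD1&2 array. Dim probes such as those of Apaf1 and Casp12 have less signal over background and wider intervals.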
